A study of Caenorhabditis elegans with 2 samples.

Results

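The nuclear tRNA genes of the X chromosome of Caenorhabditis elegans were examined for regions recovered by immunoprecipitation of the T07F8.4 gene product, tagged with GFP. All 276 genes annotated as tRNA on X in the Ensembl annotation of build WBcel235 (ce11) were taken, out of 612 nuclear tRNA genes, so that X held 45.1% of them. The rule itself uses position and annotation and no measured value. The study comprised 2 biological replicates of a single group, young adult hermaphrodites collected 64 h after synchronization as L1 larvae that had been starved after bleaching. The animals were of strain OP478, genotype unc-119(tm4063) III; wgIs478, a transgenic line in which T07F8.4 is stably expressed as a C-terminal fusion to GFP-FLAG, and whole animals were used, so the cells in which a region was occupied are not known. Chromatin was recovered with an antibody against GFP and sequenced (ChIP-seq). Untagged animals and input DNA were not analysed here, so values are compared between genes and not between conditions.

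A tRNA gene is transcribed by RNA polymerase III from a promoter that lies inside the gene. TFIIIC binds the A box near the 5′ end and the B box near the 3′ end and brings in TFIIIB, which sits just upstream of the start and recruits the polymerase. Transcription ends at a run of T a short way past the 3′ end. In C. elegans many tRNA genes have exact copies elsewhere, and many lie inside introns of protein-coding genes.

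The authors deposited a list of regions for each replicate, a list for the pooled replicates and a list of reproducible peaks selected by the irreproducible discovery rate. Each region carries a summit and a signal value that is the authors' own, on a scale that is not stated, and each value is read within its list only. The reproducible list held 621 peaks, 165 of them on X, and it consisted of the pooled regions with the highest signal values. The pooled list held 16958 regions (2743 on X), the replicate 1 list 19514 (3105 on X) and the replicate 2 list 17499 (2995 on X). The lists give no read counts, so read depth is unknown. A gene was said to have a peak or a region when a summit lay inside it or within 100 bp of it.

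Sequences of the genes on which the results below turn are given from the RefSeq genome sequence of WBcel235, each from 5′ to 3′ on the gene's own strand. Capitals near the 5′ end mark the A-box letters TNGC or TNGT, and capitals near the 3′ end mark the B-box letters GTTCNANNC, where the first N of each is A or G. The first set comes from the highest X summit, which lay between the alanine genes F15G9.t1 and F15G9.t2, with the valine gene R04D3.t2 and the leucine gene C40H5.t1, also among the 10 highest, for comparison.
F15G9.t1: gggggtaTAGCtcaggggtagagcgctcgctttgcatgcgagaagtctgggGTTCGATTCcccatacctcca
F15G9.t2: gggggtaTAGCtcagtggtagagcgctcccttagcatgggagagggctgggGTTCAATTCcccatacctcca
R04D3.t2: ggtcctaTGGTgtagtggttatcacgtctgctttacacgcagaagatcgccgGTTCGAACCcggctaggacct
C40H5.t1: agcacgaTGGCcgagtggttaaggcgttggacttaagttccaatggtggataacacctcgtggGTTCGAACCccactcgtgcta
The next set holds the 3 leucine genes on X with an intron, which interrupts the anticodon arm and is part of the sequence shown. Their signal values spread widely.
C04A11.t1: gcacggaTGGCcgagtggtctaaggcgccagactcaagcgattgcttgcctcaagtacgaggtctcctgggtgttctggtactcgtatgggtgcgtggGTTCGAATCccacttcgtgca
F42F12.t1: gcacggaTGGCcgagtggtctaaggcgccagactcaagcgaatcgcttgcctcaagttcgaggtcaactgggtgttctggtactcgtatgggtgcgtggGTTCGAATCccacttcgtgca
F02D10.t3: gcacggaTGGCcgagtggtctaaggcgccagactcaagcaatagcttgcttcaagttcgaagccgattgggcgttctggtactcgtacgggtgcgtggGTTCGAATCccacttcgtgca
The last set holds a tyrosine gene that has 6 exact copies, all on X, an arginine gene that has 10, all on X, an arginine gene that differs from it by C11G (position 11 from the 5′ end, C18A11.t2 base first), and a histidine gene of the largest cluster of identical genes.
R11.t1: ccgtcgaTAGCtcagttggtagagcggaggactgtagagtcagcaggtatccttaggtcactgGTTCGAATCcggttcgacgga
C18A11.t2: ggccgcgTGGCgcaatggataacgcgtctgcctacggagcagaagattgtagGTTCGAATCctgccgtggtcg
K01A12.t1: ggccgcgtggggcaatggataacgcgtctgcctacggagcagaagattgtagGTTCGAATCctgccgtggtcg
F28H6.t2: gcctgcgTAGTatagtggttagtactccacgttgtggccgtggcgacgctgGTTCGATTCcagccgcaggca

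A reproducible peak was found at 125 of the 276 X tRNA genes, or 45.3% (95% Wilson interval 39.5% to 51.2%). Among autosomal tRNA genes the share was 40.2% (135 of 336), a difference of 5.11 percentage points (95% Newcombe interval -2.74 to 12.9), which includes 0. The difference was 11.9 points (5.10 to 18.6) with the 310 highest reproducible peaks alone and 10.7 points (2.89 to 18.4) with the 621 highest regions of replicate 2 in place of the reproducible list, so it depends on the threshold and the replicate used. Among the 46278 other nuclear genes 1.33% (614) met the same rule, with a median gene length of 207 bp against 72 bp for the X tRNA genes. Intervals treat genes as independent draws, which neighbouring genes and exact copies are not, and they cover counting error only. A further 101 X tRNA genes had a summit in the pooled list only, so 226 (81.9%) had a pooled region, against 82.1% of autosomal tRNA genes and 20.1% of other nuclear genes. No summit of the pooled list reached the remaining 50 genes.

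The pooled signal of the 125 genes with a reproducible peak ran from 69.0 to 221 with a median of 101 (95% interval 95.9 to 105), against a median of 89.0 (86.0 to 94.2) for the 135 autosomal genes with a peak. The median intervals of X and autosomal genes with a peak did not overlap. The peak rule sets the lower end of both ranges, and the upper ends were close, at 221 on X and 207 on autosomes. Over all 226 X genes with a pooled region the median was 73.1 (67.6 to 87.0). Over the 276 autosomal genes with a pooled region it was 67.0 (61.7 to 71.5), and these intervals overlapped. Just inside the rule stood F22F1.t3 (Asp, 69.0), T08A9.t1 (Ala, 69.4) and R04D3.t1 (Thr, 69.4). Just outside stood K08B5.t2 (Glu, 68.1), rte-3 (Glu, 67.9) and T06H11.t2 (Arg, 67.8). The rule therefore cuts through a continuous range of signal, and the 101 genes with a pooled region only ran from 18.1 to 68.1 with a median of 47.7.

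The highest X summit had a pooled signal of 221 and values of 113 in the replicate 1 list and 105 in the replicate 2 list. It lay between F15G9.t1 (X:9743589-9743660, plus strand) and F15G9.t2 (X:9743747-9743818, plus strand), both in introns of him-4, which encodes an extracellular matrix protein (hemicentin). It was 108 bp past the 5′ end of F15G9.t1 and 50 bp before that of F15G9.t2, and both genes count as having the peak. The 2 genes differ at 7 of 72 bases, as the sequences above show. The next summit, with a pooled signal of 204 and replicate values of 118 and 85.8, was likewise shared, by M02F4.t2 (Glu, X:3035976-3036047, minus strand) and M02F4.t1 (Gly, X:3036164-3036235, plus strand), whose 5′ ends face each other. It was 87 bp before the 5′ end of M02F4.t2 and 30 bp before that of M02F4.t1.

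The other 6 of the 10 highest genes each had a summit of their own. C28G1.t1 (Glu) had a pooled signal of 169.9 and replicate values of 84.7 and 86.1. C33G3.t2 (Lys) had 167 in the pooled list and 86.4 and 81.1 in the replicate lists. C40H5.t1 (Leu) had 166 in the pooled list and 75.4 and 87.2 in the replicate lists. These 3 genes had no tRNA neighbour within 1000 bp and lay in no intron. F41D9.t3 (Asn), in an intron of sulp-3, a sulfate permease family gene, had a pooled signal of 166 and replicate values of 73.4 and 96.7. R04D3.t2 (Val) had 161 with 78.6 and 82.2, and the intron-bearing C04A11.t1 (Leu) had 159 with 78.3 and 77.6. In all 8 summits of the 10 highest genes the replicate values were both well above the medians over all X tRNA genes with a region, which were 39.7 in replicate 1 and 38.6 in replicate 2. These genes were picked by the pooled signal of the same replicates, with a summit in both lists required. High values in both therefore follow largely from the choice.

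Both replicate lists held a summit at 124 of the 125 genes with a reproducible peak (99.2%) and at 74 of the 151 others (49.0%). The exception was ZK154.t4 (Gly), with a pooled signal of 91.2, 55.6 in the replicate 1 list and no summit within reach in the replicate 2 list. Over all X tRNA genes 198 (71.7%) had a region in both lists, against 13.3% of other nuclear genes. Among these 198 genes the log2 signal values of the replicates had a Pearson correlation of 0.683 (Spearman 0.739), as a description across genes that share libraries. The replicate 1 value was on median 1.01 times the replicate 2 value, with an SD of 0.56 of the log2 ratio, and 151 of the 198 genes were within 1.5-fold. Within the classes the Pearson correlation was 0.546 for the 124 genes with a peak and -0.009 for the 74 without. Of the 124 genes with a peak 106 were within 1.5-fold, as were 45 of the 74 without, but the peak rule rests on the pooled signal of the same replicates and limits the range of values in each class. The genes whose assigned values differed most between replicates, both without a reproducible peak, were C16H3.t2 (Val), with 13.1 in replicate 1 and 64.4 in replicate 2, and F11A1.t1 (Glu), with 39.4 in replicate 1 and 10.7 in replicate 2. The replicate 2 value of C16H3.t2 is that of a summit also within reach of its neighbour C16H3.t1 (Val), which had a reproducible peak of 104 with 42.3 in replicate 1, so it does not compare the same summit between replicates. Of the 125 genes with a peak, 101 were reached by the 621 highest regions of each replicate list on its own, and of the 151 others none was reached by both.

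**Figure D1:**
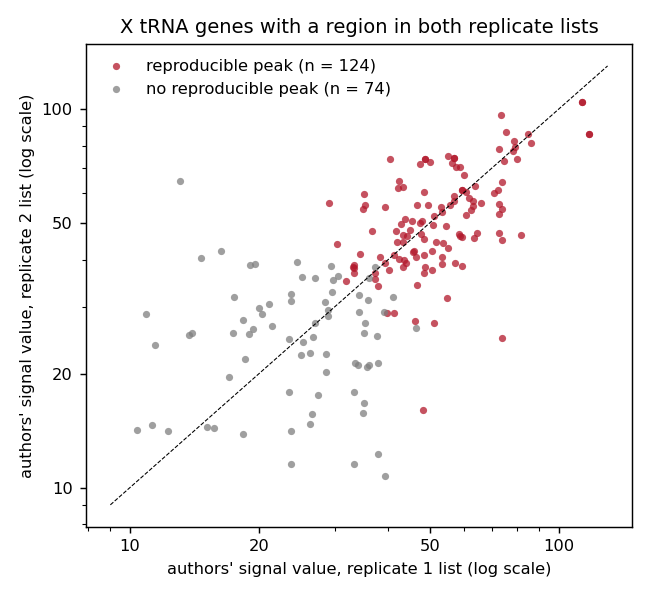
Authors' signal value in the replicate 1 list (x axis, log scale) and the replicate 2 list (y axis, log scale) for the 198 X tRNA genes with a region in both. Each point is a gene, red with a reproducible peak (n = 124) and grey without (n = 74), and the dashed line marks equal values: 151 of the 198 points lie within 1.5-fold of it. The colours split the genes by the pooled signal of the same replicates, so grey points lie at the lower left by construction.

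Summits lay over the genes and their 5′ flanks. The nearest reproducible summit was on median 8 bp past the annotated 5′ end (95% interval 6 to 16), with quartiles at -15 and 41 bp and a range from -89 to 108 bp. Of the 125 genes, 75 (60%) had the summit inside the gene, 42 (33.6%) upstream and 8 (6.4%) downstream. On autosomes 76 genes had it inside, 45 upstream and 14 downstream. The 125 genes shared 120 distinct summits, 5 of which served a pair of genes each.

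**Figure D2:**
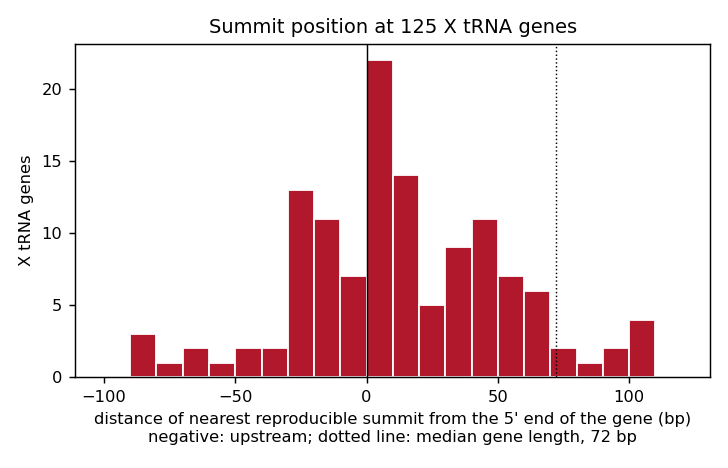
Number of X tRNA genes (y axis) by distance of the nearest reproducible summit from the 5′ end of the gene in bp (x axis, 10 bp bins, negative values upstream). The solid line marks the 5′ end and the dotted line the median gene length of 72 bp: at most of the 125 genes the summit falls from just upstream of the 5′ end to the 3′ end. A summit shared by 2 genes is counted for each, and the 100 bp rule limits the range.

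Every one of the 20 isotypes named on X had at least 1 gene with a reproducible peak, while the 3 X genes with no isotype in RefSeq (C28G1.t5, F47E1.t3 and K02D3.t1) had none. Alanine had the highest share, 12 of 13 genes (92.3%, Wilson interval 66.7% to 98.6%), against 8 of 21 autosomal alanine genes (38.1%). The exception was C56G3.t1, with a pooled signal of 52.6, no summit in the replicate 1 list and 40.1 in the replicate 2 list. The 12 alanine genes with a peak ran from 69.4 (T08A9.t1) to 221. Threonine followed with 10 of 14 genes and the highest value at T25B6.t2 (150.3; 72.4 in replicate 1 and 78.4 in replicate 2). Its neighbour T25B6.t1, 1178 bp away and different at 2 of 72 bases, had 32.6 (10.4 in replicate 1 and 14.2 in replicate 2) and no peak.

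Glycine had 12 of 20 genes with a peak, leucine 10 of 17, aspartate 7 of 12, glutamate 10 of 23, and serine and lysine 9 of 18 each. At the low end histidine had 1 of 9 genes, methionine 2 of 8, proline 6 of 20, glutamine 5 of 15, phenylalanine 2 of 6 and arginine 9 of 27. The 1 histidine gene was C06G1.t1, in an intron of C06G1.1, with 110 in the pooled list, 49.98 in replicate 1 and 72.6 in replicate 2. Cysteine had 3 of 7 genes with a peak on X and 6 of 6 on autosomes. The isotypes differ in how many of their genes lie in clusters, from 1 of 14 for threonine to 6 of 7 for cysteine, and with 5 to 27 genes each their intervals are wide. The other isotypes were represented at the top by C18A11.t2 (Arg, 131), F38G1.t2 (Asp, 127), F12D9.t1 (Cys, 105), F47E1.t1 (Gln, 129), C02D4.t1 (Ile, 132), C02F12.t1 (Met, 116), T28B4.t1 (Phe, 114), F46G11.t2 (Pro, 144), E03E2.t1 (Ser, 137) and sup-7 (Trp, 103), the tryptophan gene known for its amber suppressor alleles. In each of these 10 genes both replicate lists held the summit, with values between 43.3 and 74.5 in replicate 1 and between 47.0 and 73.0 in replicate 2.

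**Figure D3:**
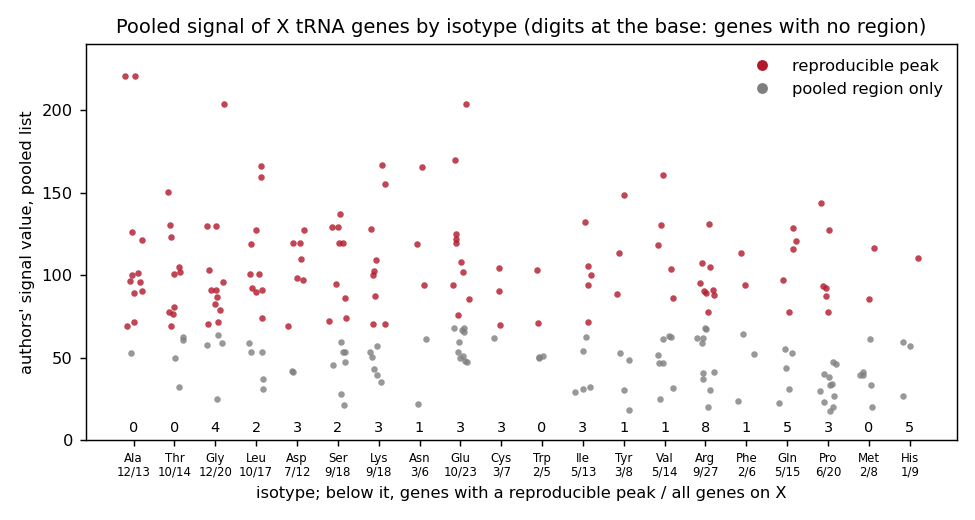
Authors' signal value in the pooled list (y axis) for each X tRNA gene by isotype (x axis), ordered by the share of genes with a reproducible peak, which is written below each isotype. Red points have a reproducible peak, grey points a pooled region only, and the digits at the base count genes with no region: alanine has 1 grey point, and 5 histidine genes have no region.

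Clustered tRNA genes on X had reproducible peaks at a lower share than single ones. Genes were called clustered when a gap of less than 1000 bp separated them from another tRNA gene, which gave 135 clustered and 141 single genes on X. A reproducible peak was found at 42 of 135 clustered genes (31.1%) and at 83 of 141 single genes (58.9%), a difference of -27.8 percentage points (95% interval -38.4 to -16.1). With each distinct sequence counted as 1 gene within each group, which has a peak if any copy in that group has, the difference was -14.7 points and its interval included 0 (-30.6 to 2.22). The 24 sequences with both clustered and single copies count in both groups. The interval treats the groups as separate, which they then are not. On autosomes the shares were 43.6% (44 of 101) for clustered and 38.7% (91 of 235) for single genes, a difference of 4.84 points (-6.39 to 16.3). Single genes on X exceeded single genes on autosomes by 20.1 points (9.72 to 30.0), while clustered genes on X were 12.5 points below clustered genes on autosomes (-24.6 to -0.06). Where a peak was present the median signal was 98.7 (91.2 to 120) at clustered and 101 (95.4 to 107) at single X genes. The peak rule sets the lower end of both ranges. Over all X genes with a pooled region the median was 62.0 (49.7 to 72.3) at the 96 clustered and 88.5 (72.0 to 93.9) at the 130 single genes. In replicate 1 the medians were 34.4 (28.6 to 39.4) and 44.6 (40.5 to 48.4). In replicate 2 they were 32.3 (26.1 to 39.1) and 40.6 (37.7 to 45.6).

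The share on X was lower in larger clusters, at 33 of 78 genes in clusters of 2 (42.3%) and 9 of 57 in clusters of 3 or more (15.8%, Wilson interval 8.54% to 27.4%). No X cluster had more than 2 genes with a peak, and among 54 clusters 20 had 1 such gene, 11 had 2 and 23 had none. Counted by cluster, 31 of 54 X clusters (57.4%) had a peak at 1 or more genes, against 28 of 46 autosomal clusters (60.9%). X clusters were the larger ones, with 15 of 3 or more genes and up to 6 genes in a cluster, against 7 of 3 or more and up to 4 genes on autosomes. In the pooled list 96 of 135 clustered X genes (71.1%) and 130 of 141 single X genes (92.2%) had a region.

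**Figure D4:**
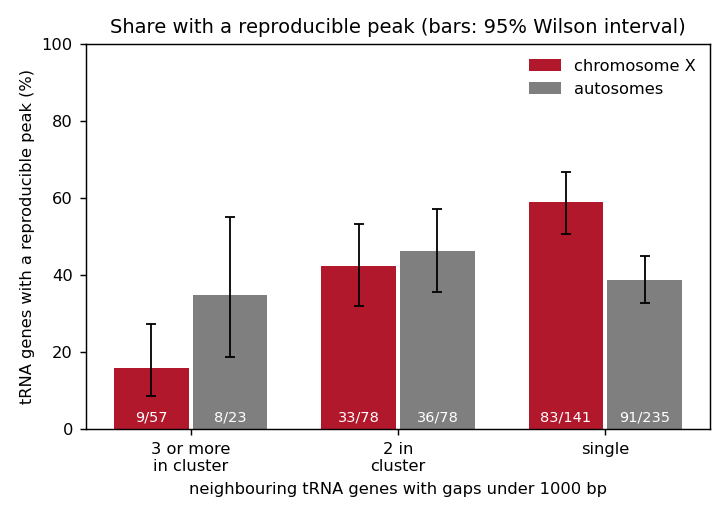
Percentage of tRNA genes with a reproducible peak (y axis) by the size of the cluster they belong to (x axis), for X (red) and autosomes (grey). Error bars are 95% Wilson intervals and the counts are written in the bars: on X the share is 15.8% in clusters of 3 or more, 42.3% in pairs and 58.9% for single genes.

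Of the 93 clustered X genes with no peak, 28 lay within 1000 bp of a reproducible summit and 13 within 300 bp, whereas none of the 58 single genes with no peak lay within 1000 bp of a reproducible summit. Summits in the pooled list were at least 199 bp apart on X, and of 81 distances between the midpoints of neighbouring clustered genes 8 were under 200 bp (median 302.5 bp), so closely set genes can share a summit. Clustered genes also had less unique sequence around them. Among X genes whose surroundings (the gene and 200 bp on each side) held under 70% of 32-base words found at a single place in the genome, 0 of 14 had a peak, and 12 of these 14 were clustered. With these genes left out, the shares were 34.1% (42 of 123) for clustered and 59.7% (83 of 139) for single genes, a difference of -25.6 points (-36.6 to -13.5). The authors' treatment of reads with several places in the genome is not stated in the sources used here, and its part in the difference was not tested beyond this.

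The largest X clusters had 6 genes each. The F28H6 cluster consisted of 6 identical histidine genes on alternating strands within 1966 bp (X:14135045-14137010). F28H6.t2, shown above, had a pooled signal of 27.0, no summit in the replicate 1 list and 26.9 in the replicate 2 list, and the other 5 had no summit in any of the lists. The unique share of 32-base words was 85.03% around F28H6.t2 and from 5.44% to 49.0% around the other 5. The F22F1 cluster spanned 2263 bp (X:8154445-8156707) and held serine, aspartate, methionine and isoleucine genes. Its F22F1.t3 (Asp) had a reproducible peak with 69.0 (39.7 in replicate 1 and 29.0 in replicate 2), and F22F1.t7 (Ile) had 54.3 (14.6 in replicate 1 and 40.5 in replicate 2). The remaining 4 genes of that cluster had no pooled value above 21.5.

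Of the 5 genes within ajm-1, which encodes an apical junction protein, H08J11.t3 (Gln) had a pooled signal of 116 and replicate values of 62.9 and 57.2, while its exact copies H08J11.t4 and H08J11.t5 in the same cluster had no summit in any list. The 5 genes within K01A12.3 had no reproducible peak. There K01A12.t1 (Arg, X:8623603-8623675), the gene with the C11G difference in its A box, had no summit in the pooled or replicate 1 list and one of 24.1 in the replicate 2 list, also within reach of K01A12.t5 (Cys). The pooled summit of 62.3 at K01A12.t3 (Arg), an exact copy of C18A11.t2, was also within reach of K01A12.t2 (Cys). The replicate values were 11.3 and 14.7 at K01A12.t3 and 35.2 and 25.6 at K01A12.t2. Among the 39 X clusters of 2 genes, 17 had facing 5′ ends, and 11 of them had a peak at 1 or both genes, with 4 pairs on a shared summit as at M02F4. Of the 6 pairs with facing 3′ ends 5 had a peak, and of the 16 pairs on the same strand 7 had one. Clusters of a single isotype had peaks at 26 of 99 genes (26.3%) and clusters of several isotypes at 16 of 36 (44.4%). The former include the 6 F28H6 genes, with no peak and a median unique share of 23.2%. The latter include C28G1.t4 (Gly) with C28G1.t5, which has no isotype in RefSeq.

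Exact copies of the same gene differed widely in signal. On X, 203 genes fell into 33 sets of identical sequence with at least 2 copies on X. In 5 sets all copies had a reproducible peak, in 4 sets none had, and in 24 sets, with 176 genes, some had and some had not. In the 24 sets that held both clustered and single copies, 27 of 91 clustered copies (29.7%) and 51 of 83 single copies (61.4%) had a peak. The single copies had the higher share in 17 sets, the clustered copies in 4, and the shares were equal in 3. Because the copies have the same internal sequence, including both boxes, these comparisons hold the gene body constant. Reads that lie wholly inside a copy are the same for all copies, and how they were placed was not tested.

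The arginine set of C18A11.t2 had 10 copies, all on X. C18A11.t2 (X:8036685-8036757, minus strand) had a pooled signal of 131 and replicate values of 70.7 and 60.0. The lowest was T06H11.t3, in an intron of unc-58, which encodes a potassium channel subunit, with 41.5 in the pooled list, 16.9 in replicate 1 and no summit in replicate 2. All 10 copies had a pooled region and 5 had a reproducible peak. The proline set of F46G11.t2 had 13 X copies, from 144 at F46G11.t2 (74.5 in replicate 1 and 73.0 in replicate 2) to no pooled region at 2 copies, C48C5.t3 and Y7A5A.t2. F46G11.t1, the other gene of its cluster and also an exact copy, had 26.9 in the pooled list, no summit in replicate 1 and 20.3 in replicate 2. The glutamate set of M02F4.t2 ran from 204 to no region at F52E10.t4, and the glycine set of M02F4.t1 from 204 to no region at R04E5.t2 and R04E5.t4.

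The tyrosine set had 6 copies, all on X, of which 4 formed the R11 cluster on the minus strand. R11.t1 (X:16209769-16209852) had a pooled signal of 149 and replicate values of 79.7 and 73.9. C02B4.t2 (X:12665228-12665311, plus strand), in an intron of nhr-17, a nuclear hormone receptor gene, had 114 in the pooled list and 57.0 and 57.2 in the replicate lists. R11.t4 had 49.0 with 23.5 and 24.8, R11.t3 had 30.5 with 10.7 and no summit in replicate 2, F56F10.t1 had 18.7 with no summit in replicate 1 and 15.6 in replicate 2, and R11.t2 had no summit in any list. The 2 copies with a peak and the 4 without thus had the same 84 bases, and their flanks differed. The 50 bases upstream of each, in order of pooled signal, were as follows.
R11.t1 upstream: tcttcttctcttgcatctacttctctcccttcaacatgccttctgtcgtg
C02B4.t2 upstream: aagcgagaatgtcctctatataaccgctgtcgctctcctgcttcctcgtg
R11.t4 upstream: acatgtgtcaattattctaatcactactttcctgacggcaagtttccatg
R11.t3 upstream: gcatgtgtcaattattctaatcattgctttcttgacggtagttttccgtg
F56F10.t1 upstream: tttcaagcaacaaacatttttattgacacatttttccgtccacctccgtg
R11.t2 upstream: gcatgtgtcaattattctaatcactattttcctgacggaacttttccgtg
Aligned without gaps, the flank of R11.t1 matched the other 5 at 13 to 19 of 50 bases, while those of R11.t2, R11.t3 and R11.t4 matched each other at 42 to 44 of 50. C02B4.t2, the other copy with a peak, matched R11.t1 least, at 13 bases, and the 4 copies without a peak matched it at 16 to 19. Whether the flanks bear on the presence of a peak was not tested.

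**Figure D5:**
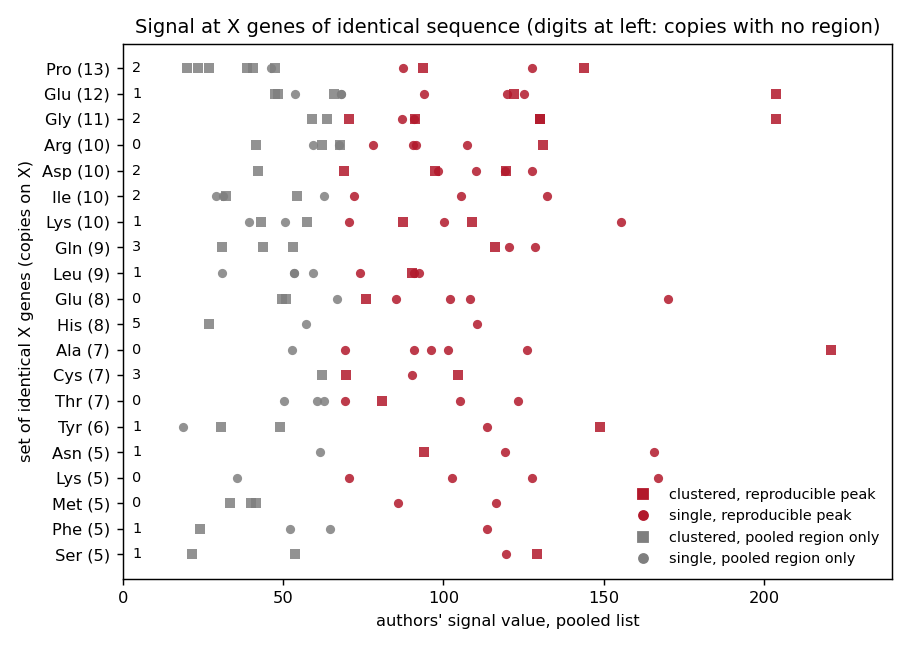
Authors' signal value in the pooled list (x axis) for the copies on X of each set of identical tRNA genes with 5 or more copies (rows, with the number of copies on X). Squares are clustered and circles single genes, red with a reproducible peak and grey with a pooled region only, and the digits at the left count copies with no region: within a set the values spread widely, in the tyrosine set from 18.7 to 149.

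X genes with an exact copy anywhere in the nuclear tRNA gene set had a peak in 108 of 219 cases (49.3%), against 17 of 57 (29.8%) for genes without one, a difference of 19.5 percentage points (5.08 to 31.7). On autosomes the counts were 111 of 250 (44.4%) against 24 of 86 (27.9%), a difference of 16.5 points (4.59 to 26.9). Among single X genes the shares were 65.5% (74 of 113) with a copy and 32.1% (9 of 28) without. Among clustered X genes they were closer, at 32.1% (34 of 106) with a copy and 27.6% (8 of 29) without. A copy is counted only where the annotated ends match. F18G5.t1 (Ala), counted as having none, shares a run of 71 bases with F15G9.t2 and is annotated 1 base further upstream, and it had a pooled signal of 96.6 with replicate values of 48.0 and 50.5.

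Of the 12 X genes with an annotated intron, 6 had a peak. Among the leucine genes with an intron, C04A11.t1 (X:13665555-13665673, plus strand) had 159, F42F12.t1 (X:12348007-12348126, minus strand) had 101 with replicate values of 50.8 and 49.4, and F02D10.t3 (X:13443386-13443504, minus strand) had 36.9 with 15.1 and 14.5 and no peak. C04A11.t1 and F02D10.t3 have the same length and differ at 11 of 119 bases, and their marked A-box and B-box letters are the same.

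The B-box letters GTTCGA, searched on both strands of the gene, were present in 200 of 276 X genes (72.5%) and in 72.0% of autosomal tRNA genes, against 2.26% of 2517 windows of 72 bp at other pooled summits on X. Genes with GTTCGA had a peak in 90 of 200 cases (45%) and genes without it in 35 of 76 (46.1%), a difference of -1.05 points (-14.1 to 11.7). With each distinct sequence counted as 1 gene the difference was 13.6 points (-7.24 to 33.0), again with an interval that includes 0. GTTCAA was present in 24.6% of X genes and 5.48% of windows. The longer GTTCGANTC, which contains GTTCGA, was present in 47.1% of X genes and 1 of the 2517 windows. TGGC was present in 46.0% of X genes and also in 34.8% of windows, so these 4 letters are common by themselves. A TTTT run within 20 bp past the 3′ end, searched on the gene's strand, was present at 273 of 276 X genes, against 18.6% of windows of 20 bp. The 3 genes without it, Y75D11A.t2 (Arg), C28G1.t5 and F52E10.t2 (Glu), had no pooled region.

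Of the 276 X genes, 95 (34.4%) lay in introns of 67 protein-coding genes, against 192 of 336 (57.1%) on autosomes. A peak was found at 41 of 95 intronic genes (43.2%) and at 84 of 181 others (46.4%), a difference of -3.25 points (-15.2 to 9.05). Its direction was not stable, at 5.77 points (-6.49 to 17.9) with the highest regions of replicate 2 alone, 1.24 points with the 310 highest peaks and 0.62 points with summits within 50 bp. Intronic genes on the strand of their host had a peak in 19 of 50 cases (38%) and those on the opposite strand in 22 of 45 (48.9%), a difference of -10.9 points (-29.5 to 8.76). Of the intronic genes 36 of 95 (37.9%) were clustered, against 99 of 181 others (54.7%). Among single genes the shares were 50.8% (30 of 59) for intronic and 64.6% (53 of 82) for other genes, a difference of -13.8 points (-29.4 to 2.58). Hosts with several tRNA genes included deg-1, a degenerin channel gene, pix-1 and tbc-12 with 3 tRNA genes and 1 peak each, and unc-58, srxa-9 and wrt-9 with 3 and none. In lgc-4, a ligand-gated channel gene, and mltn-13 both of 2 tRNA genes had a peak, as in him-4.

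Along the 17.7 Mb of X the tRNA genes were unevenly spread. With X divided into 3 equal parts, a peak was found at 44 of 107 genes (41.1%) in the middle part and at 81 of 169 (47.9%) in the outer parts, a difference of -6.81 points (-18.4 to 5.21). The direction depended on the division, since with X in 5 parts the middle 3 exceeded the outer parts by 7.91 points (-4.89 to 20.01), and it was 0.044 points with the highest regions of replicate 1 alone. These were the 2 of 10 alternatives with the other sign. With the summit required inside the gene the difference was -10.8 points, with an interval that just excluded 0 (-20.7 to -0.0008). The ninth Mb held 51 tRNA genes, more than any other, of which 14 (27.5%) had a peak, and the seventeenth Mb held 32, of which 8 (25%) had one. The fourteenth Mb held 30 genes, of which 18 (60%) had a peak, and in the seventh Mb all 6 genes had one. Among single genes alone the difference between middle and outer parts was -10.998 points (-27.2 to 5.61).

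Of a list of 15 genes for RNA polymerase III subunits, transcription factors and tRNA maturation and export, which by its name also took in the calcium channel gene cca-1, 1 had a reproducible peak from 500 bp upstream to 100 bp downstream of a transcript start, against 1.11% of 19973 protein-coding genes. It was rpac-19, a subunit shared by RNA polymerases I and III, with a signal of 80.5. A pooled region was found there at 8 of the 15, against 19.9% of the 19973 protein-coding genes. The other 7 with a pooled region were rpc-1 (39.7) and rpc-2 (43.9), which encode the largest subunits, rpc-11 (19.99), tftc-3 (22.6), named for TFIIIC, tbp-1 (26.8), the TATA-binding protein, xpo-3 (39.9), a tRNA exportin, and hoe-1 (33.7), which trims tRNA 3′ ends. The 7 with none were rpac-40, brf-1, which encodes a TFIIIB subunit, tftc-1, tftc-5, snpc-4, rtcb-1, a tRNA ligase, and cca-1.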

How the data were processed

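Whole young adult C. elegans of 1 group were profiled by ChIP-seq in 2 biological replicates. The deposited ce11 lists, 4 in all, give for each region a summit and the authors' signal value, per the file format. The sources used here do not state the aligner, peak caller, read filters and threshold of the irreproducible discovery rate. The signal is the authors' own and was used only within a list. Lists on ce10 were not used, and the number of columns left unmapped to a sample was 0. Read depth is unknown, so precision is given by the number of genes and by both replicate lists. Intervals are 95% Wilson (shares), Newcombe (differences) and exact binomial order-statistic intervals (medians). Isotypes came from RefSeq and gene bounds from Ensembl, both on WBcel235. Analyses used Python 3.11.15, pandas 2.3.3, numpy 2.4.6, scipy 1.17.1 and matplotlib 3.10.9. Assignment of summits was tested on simulated data, 200 summits planted at known genes among 612, with 0 genes assigned wrongly. The summits were planted only at genes with no tRNA neighbour within 1000 bp. Assignment within clusters, where genes can share a summit, was therefore not tested. No test between groups was possible with 1 group.

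The genes, the lists and the rules were chosen with earlier results of these data known. Genes were named by rule: the 10 highest, the highest of each isotype, the 3 on either side of the threshold, the members of the largest clusters, the ends of the 3 largest copy sets, and those with the largest replicate difference. The leucine genes with an intron, the tyrosine set, the arginine genes, the T25B6, F18G5 and ajm-1 genes and genes given as exceptions were named after their values were seen. Alternatives changed the distance of summits, the peak threshold, the replicate used, the counting of copies, the cluster gap, the host definition and the division of X.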

Additional observations from a re-analysis of the deposited data

How the results depend on the processing

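The results were recomputed under 16 alternatives, which gave 85 values. Of 53 values of a difference, 8 had the other sign: 3 for host introns (0.62, 1.24 and 5.77 points), 2 for the middle against the outer parts and 3 for GTTCGA, and every one of these differences, like its value under the original setting, had an interval that includes 0. With the summit required inside the gene, the share of X tRNA genes with a peak was 27.2%, the median summit position 22 bp past the 5′ end, and the share with a summit in both replicate lists 52%. With only the 310 highest reproducible peaks the share was 29.7%, the median signal 119 and the X minus autosomal difference 11.9 points (5.10 to 18.6). With each distinct X sequence counted as 1 gene, which has a peak if any copy has, the share was 54.7%, the median signal 112, the clustered minus single difference -14.7 points (-30.6 to 2.22) and the difference by GTTCGA 13.6 points (-7.24 to 33.0). For the clustered minus single difference, sequences with both clustered and single copies were counted in both groups. With X in 5 parts, the middle 3 against the outer parts, the difference was 7.91 points (-4.89 to 20.01). The lower share with summits inside the gene or with the highest peaks only follows from those settings, as does the higher median signal with the highest peaks. The cause of the other shifts was not tested. With the 621 highest regions of 1 replicate in place of the reproducible list, the share was 42.03% to 46.7%, the clustered minus single difference -29.1 to -25.7 points and the X minus autosomal difference 6.91 to 10.7 points, the higher of which had an interval above 0 (replicate 2 alone, 2.89 to 18.4). Their signal medians are on another scale and were not compared. The clustered minus single difference was negative in all 13 alternatives, from -33.4 points (genes with an exact copy) to -14.7 points. Genes without a copy were not among the alternatives. On X, 8 of 29 clustered (27.6%) and 9 of 28 single genes (32.1%) without a copy had a peak. The alternatives on unique surroundings and on genes with a copy were chosen after seeing the data. No paired analysis was possible because there is 1 group. Read depth, which is unknown, limits how far a missing region can be read.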
